A study of Homo sapiens with 5 samples.

Results

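The 58 genes described here encode the autophagy machinery, the lysosome and the mTOR pathway, and they are 58 of 20037 protein-coding genes that could be matched. A peak belonged to a gene when the authors' annotation named that gene, whatever the class of the peak. The study mapped DNA in A549 cells, an established human lung carcinoma line of epithelial origin, as 4 lists of narrow peaks with 1 library each. The FOXM1 and LC3 chromatin immunoprecipitations (ChIP) came from untreated cells grown with 10% fetal bovine serum and fixed in 1% formaldehyde for 10 minutes. The other lists are DNA of extracellular vesicles (evDNA) from cells grown without serum, either with no treatment (control) or after 3 days in EBSS, a balanced salt solution that starves cells. An input library was not analysed here, and the sources used here do not name the control that the peak caller was given. All lists share 1 cell line, serum and assay differ between the ChIP and the evDNA groups, and with 1 library per group no difference between lists has a replicate check. Peak lists hold no expression values, so the cell type could not be checked against marker genes.

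Autophagy encloses cytoplasm in a double membrane, the autophagosome, which fuses with the lysosome. The ULK1 kinase complex starts the process, the class III phosphatidylinositol 3-kinase (PI3K) complex marks the membrane, and a ubiquitin-like conjugation system attaches LC3 and GABARAP proteins to it. The mTOR kinase holds autophagy in check when amino acids are present, and the MiT/TFE factors switch on lysosomal genes when mTOR is off. FOXM1 is a forkhead transcription factor known for driving genes of cell division. LC3, besides its place on autophagosomes, is also found in the nucleus.

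The promoters of 3 members are shown because the peaks or motifs described afterwards can be located in them. Each is the 250 bases before the RefSeq start on GRCh38.p14, the assembly called hg38, written 5′ to 3′ on the strand of the gene. ATG3 is the window that an LC3 peak reached: it is chr3:112561963-112562212 on the minus strand, and its capitals mark the 176 bases inside the peak. GAA has a CLEAR motif, the TFEB site of lysosomal genes: it is chr17:80101331-80101580 on the plus strand, and its capitals mark the 2 copies. RICTOR is a window between 2 control evDNA peaks that lie on either side of the start: it is chr5:39074400-39074649 on the minus strand, and it is in lower case because no peak reached it.
ATG3: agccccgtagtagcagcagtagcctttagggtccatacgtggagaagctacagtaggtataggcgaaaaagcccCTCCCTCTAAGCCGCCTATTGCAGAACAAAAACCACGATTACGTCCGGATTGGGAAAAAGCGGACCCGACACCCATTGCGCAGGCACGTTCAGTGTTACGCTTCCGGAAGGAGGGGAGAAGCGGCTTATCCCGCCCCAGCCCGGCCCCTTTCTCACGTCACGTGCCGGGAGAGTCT
GAA: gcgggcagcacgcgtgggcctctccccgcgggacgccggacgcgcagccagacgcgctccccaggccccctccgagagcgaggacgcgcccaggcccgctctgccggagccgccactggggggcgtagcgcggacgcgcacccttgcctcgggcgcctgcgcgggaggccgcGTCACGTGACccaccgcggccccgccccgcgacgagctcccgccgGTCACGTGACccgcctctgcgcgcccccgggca
RICTOR: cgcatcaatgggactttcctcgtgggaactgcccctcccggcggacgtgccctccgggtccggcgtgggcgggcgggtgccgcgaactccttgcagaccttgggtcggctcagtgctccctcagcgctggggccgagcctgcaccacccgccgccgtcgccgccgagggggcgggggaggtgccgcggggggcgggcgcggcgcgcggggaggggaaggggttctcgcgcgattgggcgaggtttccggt

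Across the 4 lists, 102 peaks were assigned to members: 12 in FOXM1 ChIP, 8 in LC3 ChIP, 51 in control evDNA and 31 in EBSS evDNA. A peak in any list was assigned to 33 of the 58 members. For comparison, 45.1% of all protein-coding genes had a peak in any list. Class here follows the authors' annotation, with promoter for a peak within 1 kb of a transcription start, flank for 1 to 3 kb from a start, genic for exons and introns, and distal for the rest. The lists differ in length, with 11195, 7801, 28993 and 15402 peaks after merging. Relative to control evDNA the depth was estimated at 0.479 in FOXM1 ChIP, 0.762 in LC3 ChIP and 1.01 in EBSS evDNA, and true read totals are unknown. Most peaks are weak: q was at most 0.05 for 1.97%, 3.78%, 13.3% and 9.77% of the peaks in the same order, and for 9 of the 102 member peaks.

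In FOXM1 ChIP, 8 of 58 members held a peak (13.8%, exact 95% interval 6.15% to 25.4%), against 11.7% of all protein-coding genes. LC3 ChIP also had 8 members, against 14.7% of genes. Control evDNA had 24 members (41.4%, interval 28.6% to 55.1%), against 27.9% of genes, and EBSS evDNA had 18 (31.0%, interval 19.5% to 44.5%), against 20.4%. Both ChIP counts were near those of genes in general, and both evDNA counts were above them, with the share of all genes just under the interval in control evDNA and inside it in EBSS evDNA. Intervals cover counting error only, and members are not independent draws. RefSeq gene length moved with the count: members had a median length of 42.3 kb against 24.1 kb for all protein-coding genes, and the counts by length class are given with the lengths.

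Promoter peaks were the main class of member peaks in LC3 ChIP and genic peaks in the other lists. No FOXM1 peak was a promoter peak of a member, against 1.55% of genes, while 3 members had a flank peak (1.83% of genes), 6 a genic peak (7.15%) and none a distal peak (3.17%). In LC3 ChIP, 5 members had a promoter peak (7.89% of genes), and 1 each had a flank (2.02%), genic (4.87%) or distal (2.29%) peak. Promoter peaks were thus 62.5% of the 8 LC3 member peaks (interval 24.5% to 91.5%), and they were 28.5% of the whole LC3 list. The whole lists also hold peaks named for noncoding genes, so these shares are not of the same kind. Among protein-coding genes with an LC3 peak, 1580 of 2952 had a promoter peak, and 5 of the 8 members did. Control evDNA gave 2 members with a promoter peak (6.15% of genes), 5 with a flank (5.65%), 15 with a genic (16.1%) and 10 with a distal peak (8.32%). EBSS evDNA gave 4 with a promoter (3.54%), 2 with a flank (3.65%), 14 with a genic (11.3%) and 2 with a distal peak (5.29%). Genic peaks made up 58.8% of member peaks in control evDNA and 71.0% in EBSS evDNA, against 42.8% and 41.5% of the whole lists, noncoding names included. Among protein-coding genes with a control evDNA peak, 3228 of 5590 had a genic one, as did 15 of 24 members. In EBSS evDNA these were 2274 of 4088 genes and 14 of 18 members.

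**Figure D1:**
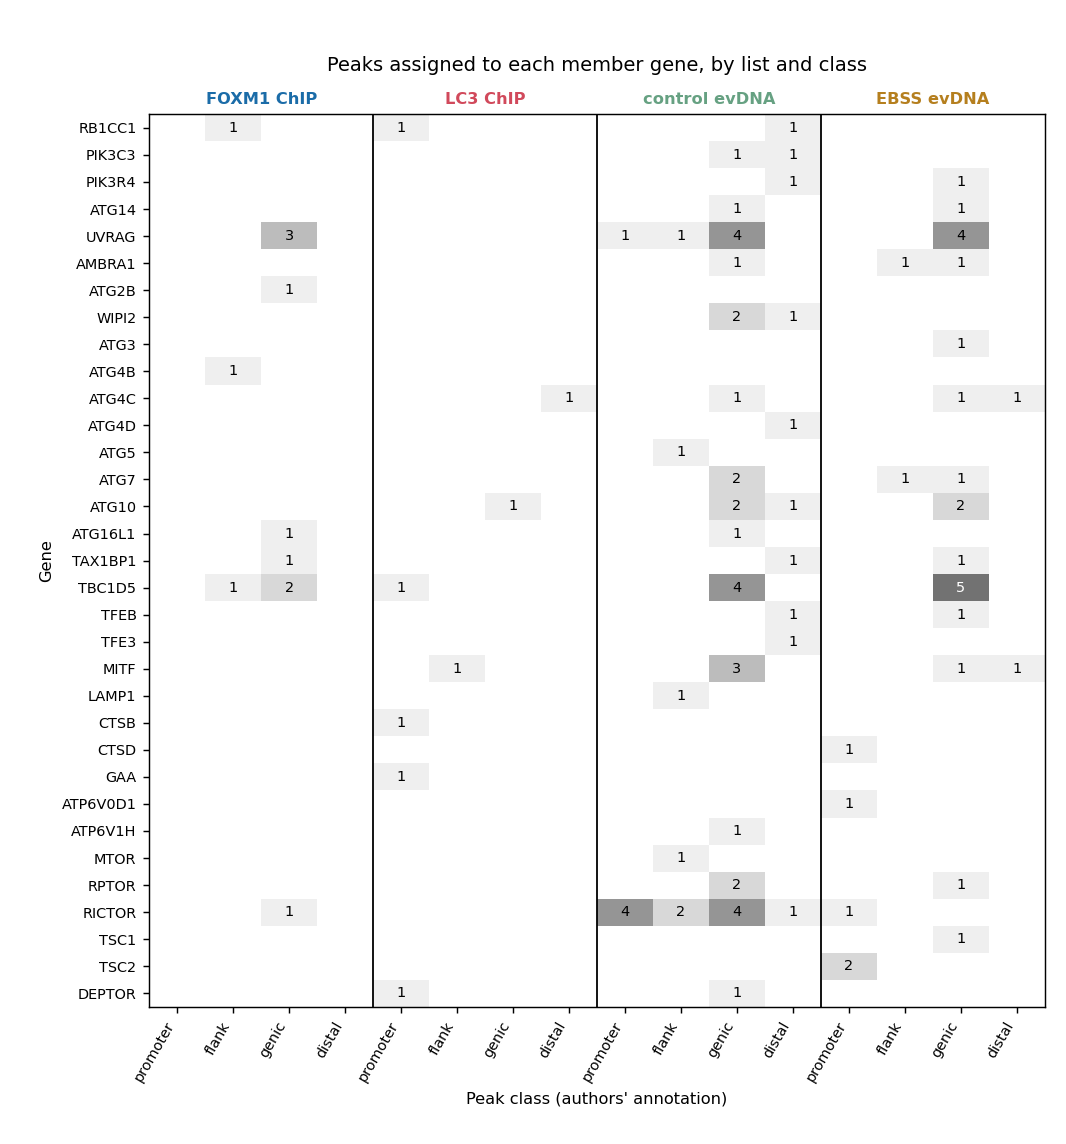
Number of peaks assigned to each of the 33 members with at least 1 peak (rows, ordered by role), for each list and class (columns); empty cells are 0 and darker cells hold more peaks. LC3 ChIP counts stand mainly in the promoter column and evDNA counts in the genic column, and RICTOR has 11 peaks in control evDNA.

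The LC3 and GABARAP genes encode the ubiquitin-like proteins that are attached to the autophagosome, and none of the 7 (MAP1LC3A, MAP1LC3B, MAP1LC3B2, MAP1LC3C, GABARAP, GABARAPL1 and GABARAPL2) was named at a peak in any list. By position, however, the strongest member peaks of both ChIP lists lie here, under the names of noncoding neighbours. MAP1LC3B2 on chromosome 12 held a FOXM1 peak at chr12:116575759-116576445 with a fold of 74.3 over the local background, a pileup of 239 fragments and a −log10 q of 379.6. It was the peak of rank 3 by fold in the FOXM1 list. LC3 ChIP had a peak at chr12:116575825-116576390 inside the same interval, with a fold of 10.03, a pileup of 43 and a −log10 q of 25.04. That peak had the highest fold of the LC3 list, so both antibodies gave one of their leading peaks in the last part of the same gene, and neither evDNA list had a peak there. MAP1LC3B on chromosome 16 held a FOXM1 peak at chr16:87402924-87403301 with a fold of 13 and a −log10 q of 28.8, and no peak in the other lists. MAP1LC3B and MAP1LC3B2 have near-identical coding sequences, so how reads from such sequence divide between them is uncertain. Neither MAP1LC3A nor MAP1LC3C had a peak by position. For MAP1LC3A only the gene body was searched, because its strand was not known here.

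Of the ULK1 initiation complex, RB1CC1 was the member with peaks, and ULK1, ULK2, ATG13 and ATG101 had none by name. RB1CC1 encodes FIP200, the scaffold of the complex, and the gene lies on chromosome 8. LC3 ChIP had a promoter peak 243 bp before its start, with a fold of 3.52 and a pileup of 9. FOXM1 ChIP had a peak in the gene with a fold of 3.59, 50.2 kb after the start, and control evDNA a distal one with a fold of 2.44. These 3 peaks lie apart from each other and none reached a q of 0.05. ULK2, a kinase related to ULK1, had an LC3 peak 2802 bp before its start with a fold of 2.95, named for the noncoding neighbour AC015726.2.

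The class III PI3K complex held peaks at 5 of its 6 genes, with 11 peaks in control evDNA, 8 in EBSS evDNA, 3 in FOXM1 ChIP and 0 in LC3 ChIP. Over all protein-coding genes 45.1% held a peak in any list, and UVRAG (329 kb), AMBRA1 (198 kb) and PIK3C3 (133 kb) are long genes. BECN1, which encodes the scaffold Beclin 1, had none. PIK3C3, the catalytic kinase, had 2 control evDNA peaks with folds of 2.78 and 3.48. PIK3R4, its regulatory subunit, had 1 peak in control evDNA (3.13) and 1 in EBSS evDNA (2.70). ATG14, which targets the complex to the site of autophagosome formation, had 1 in each, with folds of 2.47 and 2.58, and both also lie in the overlapping gene FBXO34. By position, EBSS evDNA had another peak 1197 bp before the ATG14 start, chr14:55413027-55413406, named for RPL21P6. Its fold was 3.05 and its −log10 q 0.473. AMBRA1, a regulator of Beclin 1, had folds of 2.09 in control evDNA and of 2.11 and 2.77 in EBSS evDNA.

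UVRAG, which joins the complex on endosomes, carried most of the peaks of this group. Its 329 kb on chromosome 11 had 3 named peaks in FOXM1 ChIP, 6 in control evDNA and 4 in EBSS evDNA, and 2 more in each evDNA list under other names. The FOXM1 peak chr11:76005246-76005824 in intron 9 had a fold of 3.37 and a pileup of 6, and it overlapped the EBSS evDNA peak chr11:76005610-76006078, with a fold of 2.32 and a pileup of 6. Both are weak, with −log10 q values of 0.133 and 0.147. The control evDNA peak that the annotation calls a promoter peak of UVRAG lies 164 kb into the gene. Its strongest control and EBSS evDNA peaks had folds of 3.48 and 3.41 and lie in introns 13 and 12.

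Of the lipid transfer proteins and phosphoinositide effectors, ATG2B and WIPI2 had peaks, and ATG2A and WIPI1 had none. ATG2B, a bridge that moves lipid into the growing membrane, held a FOXM1 peak in intron 6 with a fold of 3.68 and a pileup of 7, and no peak elsewhere. WIPI2, which reads the lipid made by the PI3K complex and recruits ATG16L1, held 3 control evDNA peaks with folds of 2.65, 3.11 and 2.34.

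In the conjugation machinery 8 of 10 genes held peaks, with 2 in FOXM1 ChIP, 2 in LC3 ChIP, 9 in control evDNA and 7 in EBSS evDNA. The share of all protein-coding genes with a peak was 45.1%, and ATG7 (304 kb), ATG10 (284 kb) and ATG5 (141 kb) are long genes. ATG4A, a protease, and ATG12, which is joined to ATG5, had none. ATG3 is the enzyme that hands LC3 to lipid. Its EBSS evDNA peak at chr3:112556981-112557502 in intron 2 had a fold of 3.75, a pileup of 11 and a −log10 q of 1.46, past the limit of 1.30 that stands for a q of 0.05. By position, LC3 ChIP also had a peak over the start of ATG3, at chr3:112561835-112562138, with a fold of 2.96 and a −log10 q of 0.284, which the annotation gives to the divergent neighbour SLC35A5. That is the peak marked by capitals in the ATG3 sequence. ATG10, the enzyme that joins ATG12 to ATG5, had named peaks in LC3 ChIP (1, fold 3.03), control evDNA (3, folds 2.35 to 3.13) and EBSS evDNA (2, both 2.79). Its body also held a control evDNA peak at chr5:82078336-82078687 with a fold of 3.71 and a −log10 q of 1.48, named for the noncoding gene RN7SL378P, and a FOXM1 peak at chr5:82222075-82222420 with a fold of 2.89, named for AC010598.1. ATG4C, a protease that processes LC3, had peaks in the same lists, with folds of 3.30 in LC3 ChIP, 3.13 in control evDNA, and 3.02 and 2.79 in EBSS evDNA. None of the named ATG10 and ATG4C peaks overlapped between lists or reached a q of 0.05. ATG7, the activating enzyme of both conjugations, had 2 named peaks in control evDNA (2.48 and 2.44) and 2 in EBSS evDNA (2.19 and 3.13). Within its 304 kb, noncoding AC026185.1 took the name of 1 FOXM1, 2 LC3, 2 control and 1 EBSS peak more. With these, ATG7 had peaks from all 4 lists, and the FOXM1 peak chr3:11453613-11454570 (fold 3.35) overlapped the control evDNA peak chr3:11453482-11453746 (fold 2.66). ATG16L1, which directs the last step to the membrane, had a FOXM1 peak (3.12) and a control evDNA peak (2.78) that lie in intron 3 without touching. Single peaks stood at the protease genes ATG4B (FOXM1, 3.37) and ATG4D (control evDNA, 2.32) and at ATG5 (control evDNA, 2.78).

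Among the cargo receptors, which tie material to LC3, TAX1BP1 had peaks by name, and SQSTM1, NBR1, OPTN and CALCOCO2 had none. TAX1BP1 had 1 peak in each of FOXM1 ChIP (2.89), control evDNA (2.62) and EBSS evDNA (2.72), all apart from each other. By position it also had an LC3 peak 63 bp after one of its starts, at chr7:27740225-27740641 with a fold of 3.41, named for noncoding AC005091.1. A control evDNA peak under the same name, chr7:27741777-27742099, lies 1615 bp after the start with a fold of 3.41. By position, 3 members (ATG7, ATG10 and TAX1BP1) had a peak in all 4 lists, as did 2.77% of protein-coding genes. SQSTM1, which encodes the receptor p62, had 2 LC3 peaks by position before its start, and both are named for the neighbour MGAT4B. The closer one, chr5:179805656-179805959, lies 434 bp before the start with a fold of 2.52, and the other 2341 bp before it with a fold of 3.20.

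TBC1D5 encodes a GTPase-activating protein for Rab7 that binds LC3 and the retromer, and it was the member named in all 4 lists, as were 2.14% of protein-coding genes. Its 585 kb on chromosome 3 make it the longest member. Inside intron 8 of 21, the FOXM1 peak chr3:17401795-17402425 had a fold of 24.5, a pileup of 50 against a background of 1.08, and a −log10 q of 59.2. It had rank 6 by fold in the FOXM1 list and was the 1 FOXM1 member peak by name with a q of at most 0.05, a limit that 0.23% of genes passed. The EBSS evDNA peak chr3:17402009-17402289 lies inside the same interval, with a fold of 3.84, a pileup of 10 and a −log10 q of 1.39. No control evDNA peak overlapped it. The other named peaks of TBC1D5 were 2 in FOXM1 ChIP (2.41 and 3.37), 4 in control evDNA (2.52 to 3.44) and 4 in EBSS evDNA (2.78 to 3.12). The LC3 peak that carries its name, chr3:18443649-18444225 with a fold of 3.79, lies 701 kb from the RefSeq start and inside SATB1, so by position TBC1D5 had no LC3 peak. Another 4 FOXM1, 6 control and 4 EBSS peaks in its body are named for noncoding genes.

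**Figure D2:**
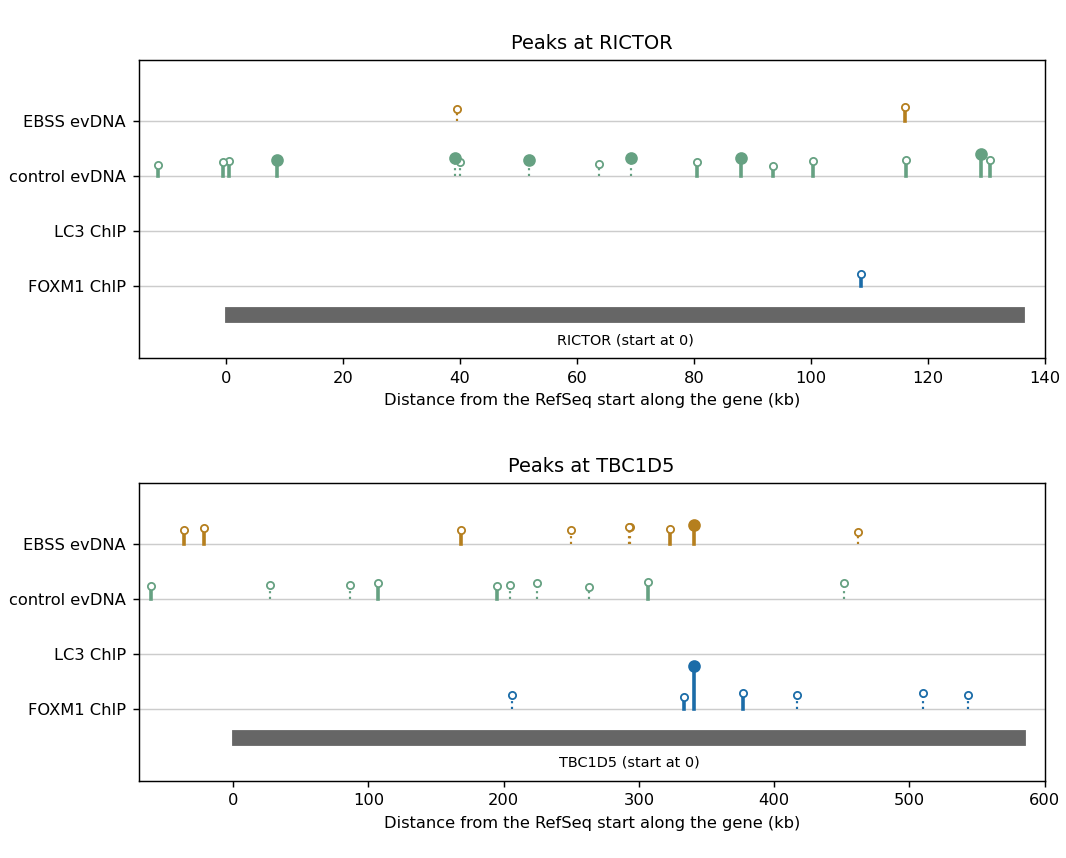
Peaks along RICTOR and TBC1D5, by distance in kb from the RefSeq start in the direction of the gene, with 1 line per list; the height of a stem is proportional to log2 of the fold, dotted stems are peaks named for another gene, and filled circles have a q of at most 0.05. RICTOR carries a row of control evDNA peaks along its whole body, and in TBC1D5 the FOXM1 peak of fold 24.5 stands over an EBSS evDNA peak.

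All 3 MiT/TFE factors, the transcription factors of lysosomal genes that mTOR keeps in the cytoplasm, had evDNA peaks. Over all protein-coding genes 27.9% held a control evDNA peak and 20.4% an EBSS evDNA peak. MITF (229 kb) is a long gene, and for genes over 200 kb these shares were 73.0% and 60.5%. TFEB had a distal peak in control evDNA (2.41) and an intron peak in EBSS evDNA (2.28), and TFE3 a distal peak in control evDNA (2.87). MITF had an LC3 peak 2545 bp after a start (3.34), 3 control evDNA peaks (3.12, 3.41 and 3.15) and 2 EBSS evDNA peaks (2.86 and 2.96). The control peak chr3:69831671-69832217 and the EBSS peak chr3:69832015-69832314 in intron 1 of MITF overlapped, with folds of 3.41 and 2.96, and both missed a q of 0.05.

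Of the 9 lysosomal genes, 6 had 1 peak each in 1 list, and LAMP2, CTSL and MCOLN1 had none. Over all protein-coding genes 45.1% held a peak in any list. The LC3 peaks stood near the starts of CTSB and GAA. CTSB encodes the protease cathepsin B, and its peak lies 918 bp after the start with a fold of 3.37 and a pileup of 13. GAA encodes the enzyme that breaks down glycogen in the lysosome, and its peak lies 1089 bp after the start with a fold of 2.39 and a pileup of 9, the lowest fold of the LC3 member peaks. Control evDNA peaks stood at LAMP1, a membrane glycoprotein (2.96), and ATP6V1H, a subunit of the proton pump (3.48). EBSS evDNA peaks stood at CTSD, which encodes the protease cathepsin D (2.97), and ATP6V0D1, another pump subunit (2.35). The annotation calls both EBSS peaks promoter peaks, although they lie 1685 bp and 40.6 kb after the RefSeq starts.

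The mTOR and TSC genes had 15 peaks in control evDNA, 11 of them at RICTOR, 5 in EBSS evDNA, 1 in FOXM1 ChIP and 1 in LC3 ChIP. A peak in any list stood at 6 of the 8 genes (45.1% of all protein-coding genes), and MLST8 and RHEB had none. Control evDNA had peaks at 4 of the 8 (27.9% of genes) and EBSS evDNA also at 4 (20.4%). RPTOR (422 kb), DEPTOR (177 kb), MTOR (156 kb) and RICTOR (136 kb) are long genes. DEPTOR, which encodes an inhibitor that binds mTOR, had the strongest LC3 peak by name. It lies on chromosome 8, 173 bp after the start, with a fold of 4.09, a pileup of 11 and a −log10 q of 1.28, just under the limit of 1.30. A control evDNA peak in its intron 2, at chr8:120000938-120001221, had a fold of 3.46 and a −log10 q of 1.95. RPTOR, the scaffold of mTOR complex 1, had a control evDNA peak at chr17:80930209-80930564 (fold 3.11, pileup 14, −log10 q 1.32) and an EBSS evDNA peak at chr17:80930220-80930655 (3.31, 14 and 1.39). They overlap in intron 24 with nearly the same first base, and both passed a q of 0.05. Another named control evDNA peak of RPTOR, chr17:80903036-80903503, had a fold of 2.645. Under other names, its body held 2 LC3 peaks (2.86 and 3.05), 1 control evDNA peak (2.84) and 1 EBSS evDNA peak (3.04). MTOR, the kinase, had 1 control evDNA peak 1468 bp before its start (2.19). TSC1 had an EBSS evDNA peak in an intron (2.54), and its partner TSC2, with which it restrains RHEB, had 2 EBSS peaks (3.06 and 2.28) that are called promoter peaks and lie 6.57 kb and 38.04 kb after the RefSeq start.

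RICTOR, the scaffold of mTOR complex 2, had 11 named peaks in control evDNA, more than any other member in any list. FOXM1 ChIP and EBSS evDNA had 1 each, with folds of 2.41 and 2.71, and LC3 ChIP had 0. The strongest control peak, chr5:38945096-38945579, had a fold of 5.11, a pileup of 19 and a −log10 q of 5.98, and it also lies in the last bases of the neighbour OSMR, which runs the other way along the DNA. Another 2 control peaks passed a q of 0.05 by name: chr5:38986062-38986528 with a fold of 3.75 and chr5:39065495-39065979 with a fold of 3.26. At the start itself, control peaks lay on both sides, 353 bp after it with a fold of 3.07 and 467 bp before it with a fold of 2.72. The RICTOR sequence printed with the promoters lies within the gap between them, and its 250 bases have 76% G and C, against a median of 62% over 22199 promoter windows. The EBSS evDNA peak chr5:38958089-38958364 lies inside the control peak chr5:38957725-38958381 (fold 3.35).

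Another 5 control evDNA peaks in RICTOR are named for AIG1P1, a pseudogene inside it, which gave 14 peaks within the 136 kb gene. That is 103 peaks per Mb in control evDNA, 14.7 in EBSS evDNA, 7.33 in FOXM1 ChIP and 0 in LC3 ChIP. Among 3356 protein-coding genes of at least 100 kb, 2 were denser in control evDNA, and the median was 7.63 per Mb. The neighbourhood was dense too. In control evDNA the 1 Mb on each side held 53 peaks per Mb, OSMR 100.4, C9 99.6, FYB1 53.2, LIFR 52.3, DAB2 37.5 and EGFLAM 9.67. The first 46 Mb of chromosome 5 held 54.5 per Mb in control and 18.2 in EBSS evDNA, against 13.8 and 7.16 in the rest of the chromosome past 50 Mb. The recovered background under the RICTOR peaks was also higher than usual, with a median of 3.46 fragments (2.28 to 4.82) against 2.04 over the list. The part of this local density and background in the RICTOR count was not tested.

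**Figure D3:**
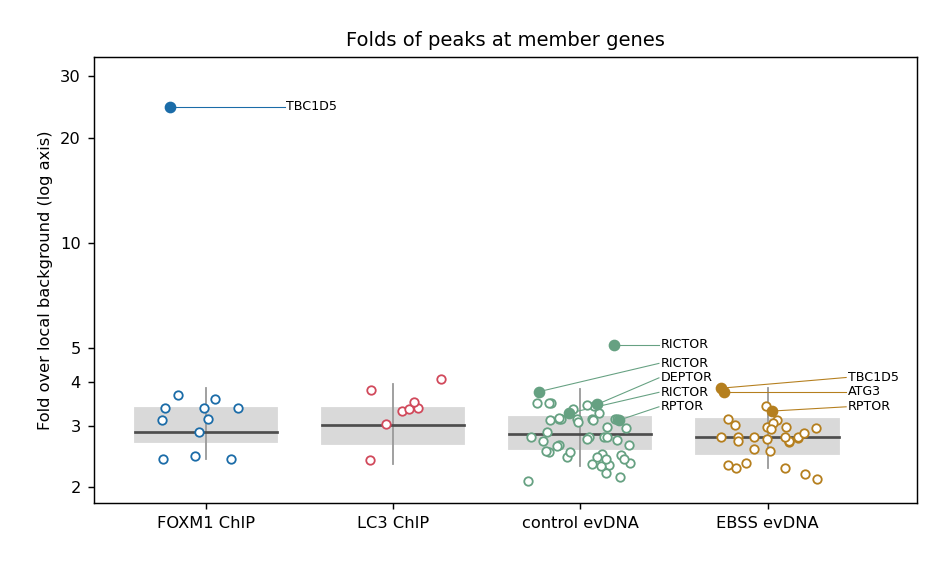
Fold over the local background (log axis) of every member peak by name in each list, as circles filled where q is at most 0.05; grey boxes run from the 25% to the 75% quantile of all peaks in the list, the dark line their median and the thin line the range from the 5% to the 95% quantile. The FOXM1 peak of TBC1D5 at 24.5 and the control evDNA peak of RICTOR at 5.11 stand above the rest of their lists' member peaks.

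Folds of member peaks were close to those of the whole lists. Their median was 3.25 in FOXM1 ChIP (2.41 to 24.5), 3.36 in LC3 ChIP (2.39 to 4.09), 2.78 in control evDNA (2.09 to 5.11) and 2.79 in EBSS evDNA (2.11 to 3.84), against list medians of 2.89, 3.02, 2.84 and 2.79. Member pileups ran from 4 to 50 fragments in FOXM1 ChIP, 7 to 13 in LC3 ChIP, 6 to 19 in control evDNA and 6 to 14 in EBSS evDNA. By name, a peak of q at most 0.05 stood at 1 member in FOXM1 ChIP (0.23% of genes), 0 in LC3 ChIP (0.684%), 3 in control evDNA (4.69%), and 3 in the EBSS list (1.65%). By position it stood at 3 members in FOXM1 ChIP (TBC1D5, MAP1LC3B and MAP1LC3B2; 0.274% of genes) and at MAP1LC3B2 in LC3 ChIP (0.813%). Control evDNA then had 4, with ATG10 added (4.88%), and EBSS evDNA the same 3 as by name (1.75%). MAP1LC3B and MAP1LC3B2 have near-identical coding sequences, so these counts may rest partly on how reads were divided between them.

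Peaks were also placed by their distance to the starts in RefSeq, whatever gene they were named for. The strand of MAP1LC3A, LAMP2 and MLST8 was not known here. The higher coordinate of each stood in for its start, so their true starts may not have been searched. By position, 6 members had an LC3 peak within 1 kb of a RefSeq start: DEPTOR, RB1CC1, TAX1BP1, CTSB, ATG3 and SQSTM1. The background was 8.9% of 17601 protein-coding genes with a start in the table, so this too is near the share of genes in general. RICTOR was the 1 member in control evDNA (3.69% of genes), and there was none in FOXM1 ChIP (0.517%) or EBSS evDNA (1.76%). Of the promoter peaks of members in the authors' annotation, 3 of 5 in LC3 ChIP, 2 of 5 in control evDNA and 0 of 5 in EBSS evDNA lay that close to a RefSeq start. All 5 EBSS promoter calls at members lie further from the starts in that table.

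**Figure D4:**
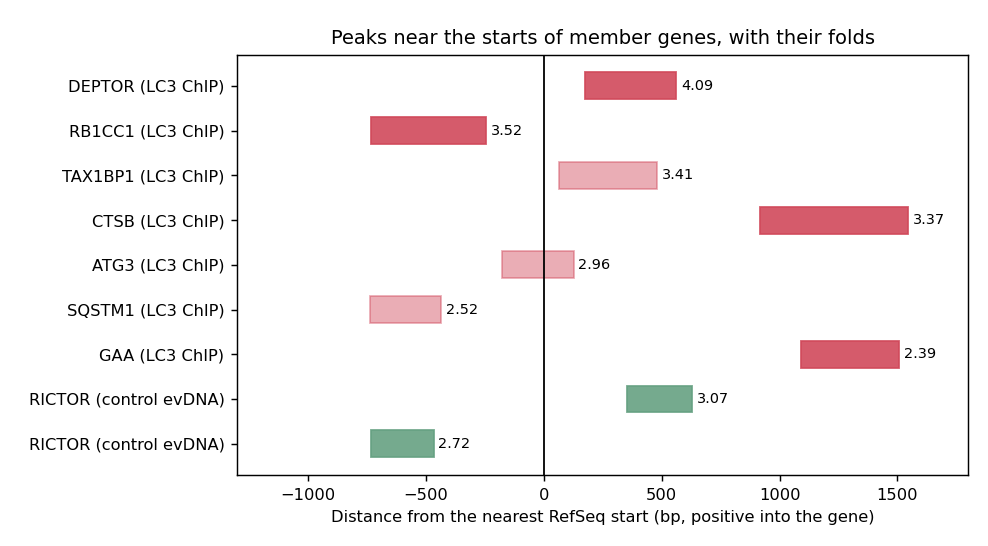
Position of the LC3 ChIP and control evDNA peaks near the starts of members, as bars from the first to the last base of the peak by distance in bp from the nearest RefSeq start (0), positive into the gene; the number is the fold, and pale bars are peaks named for another gene. The LC3 peak of ATG3 crosses the start, and the 2 control evDNA peaks of RICTOR lie on either side of it.

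The same members recurred in several lists, but seldom at the same place. Of the 8 FOXM1 members, 2 (25%), RB1CC1 and TBC1D5, were among the 8 LC3 members, where 36.2% of FOXM1 and 28.9% of LC3 genes were shared over all protein-coding genes, 4.25% of which held both. FOXM1 shared 6 members with control evDNA (75% of its 8 and 25% of the 24; 61.0% and 25.7% over all genes, 7.17% of which held both) and 4 with EBSS evDNA (50% and 22.2%; 45.3% and 26.1%, with 5.33% holding both). LC3 shared 6 with control evDNA (75% and 25%; 50.3% and 26.6%, with 7.41% holding both) and 4 with EBSS evDNA (50% and 22.2%; 38.8% and 28%, with 5.71% holding both). The evDNA lists shared 13 members, 54.2% of the control and 72.2% of the EBSS members, against 41.8% and 57.1% over all genes, 11.7% of which held both. The part of gene length in these shares was not tested.

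Among peaks by name, those that overlapped by at least 1 bp were few. FOXM1 and EBSS evDNA shared 2, at TBC1D5 and UVRAG, which are 16.7% of the 12 FOXM1 and 6.45% of the 31 EBSS member peaks, against 1.37% and 1% of the whole lists. Control and EBSS evDNA shared 3, at MITF, RICTOR and RPTOR, which are 5.88% of the 51 and 9.68% of the 31, against 6.47% and 12.1%. By position these lists also overlapped at peaks named for noncoding genes or pseudogenes. In intron 6 of DEPTOR, chr8:120031908-120032448 (control, fold 2.55) met chr8:120032184-120032498 (EBSS, 2.64). In intron 2 of RICTOR, chr5:39034906-39035668 (control, 3.66) met chr5:39034757-39035160 (EBSS, 2.38). No member peak by name overlapped between FOXM1 and LC3 (1.38% and 2.01% of the lists), FOXM1 and control evDNA (2.05% and 0.797%), LC3 and control evDNA (3.37% and 0.9%) or LC3 and EBSS evDNA (1.88% and 0.961%). By position, however, FOXM1 and LC3 peaks overlapped at MAP1LC3B2, and FOXM1 and control evDNA peaks overlapped at ATG7.

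Gene length moved with the evDNA counts. All 6 members over 200 kb (UVRAG, ATG7, ATG10, TBC1D5, MITF and RPTOR) had a peak in each evDNA list, where 73.0% and 60.5% of protein-coding genes of that length did. In FOXM1 ChIP 2 of the 6 had one (51.2% of genes) and in LC3 ChIP 3 (43.6%). All 7 members of 100 to 200 kb had a peak in control evDNA (54.5% of genes) and 2 of 7 in EBSS evDNA (38.8%). Of the 17 members under 20 kb, 4 had a peak in any list, against 27.0% of genes of that length. Members without any peak by name had a median length of 17.2 kb, and those with one 81.4 kb. Counted per Mb of gene body, members held 12.5 control evDNA peaks against 9.40 over all protein-coding genes, and 9.83 without RICTOR. In EBSS evDNA they held 8.10 against 5.04, and 7.91 without RICTOR. FOXM1 ChIP had 4.15 against 3.38 and LC3 ChIP 2.70 against 3.19.

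**Figure D5:**
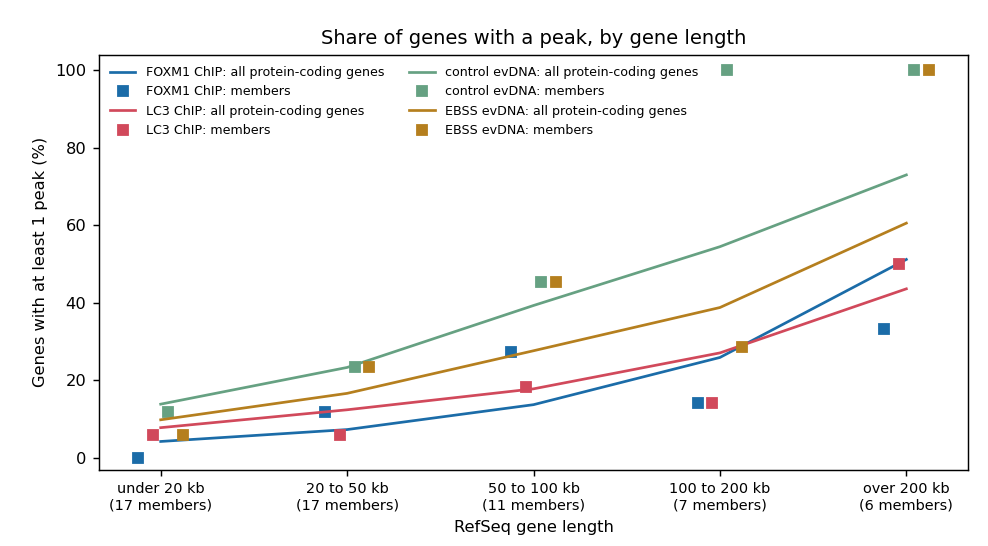
Share of genes with at least 1 peak (%) by RefSeq gene length, as lines for all protein-coding genes and squares for members in the same colour; the number of members in each length class stands under the axis. Members over 200 kb reached 100% in both evDNA lists, above the lines of 73.0% and 60.5%, while the FOXM1 and LC3 squares lie on both sides of their lines.

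Motifs were searched on both strands in windows from 250 bases before to 50 after each RefSeq start, of which 63 belong to 49 of the members and 22199 to protein-coding genes. The forkhead motif GTAAACA stood in 2 member windows, of CALCOCO2 and CTSL, and in 2.85% of all windows. Neither gene had a FOXM1 peak. The E-box CACGTG, bound by MiT/TFE factors among others, stood in 9 windows (14.3%), of ATG14, ATG3, ATP6V0D1, CTSD, GAA, LAMP1, MCOLN1, TBC1D5 and TSC2, against 8.34% of all windows. In ATG3 it begins 18 bases before the start, inside the LC3 peak shown in capitals. The longer CLEAR motif, the E-box with GT before it and AC after it, stood in GAA and MCOLN1 and in 0.496% of all windows. Its 2 copies in GAA begin 78 and 33 bases before the start, and the LC3 peak of GAA lies outside the window. The cell cycle element CHR, TTTGAA, stood in 8 member windows (12.7%) and in 12.4% of all windows. A match of letters is a description, not a binding site.

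Other genes of the pathway were counted in the same way. Of 140 further genes of core and selective autophagy, lysosomal fusion, amino acid sensing, mTOR input and output, lysosomal content and the proton pump, 13 had a peak in FOXM1 ChIP, 15 in LC3 ChIP, 44 in control evDNA and 26 in EBSS evDNA. These are 9.29%, 10.7%, 31.4% and 18.6%, against 11.7%, 14.7%, 27.9% and 20.4% of all protein-coding genes. Both evDNA shares lie nearer to those of all genes than the 41.4% and 31.0% of the members do, and the difference was not tested. Promoter peaks stood at 1, 9, 12 and 7 of them, or 0.714%, 6.43%, 8.57% and 5%, against 1.55%, 7.89%, 6.15% and 3.54% of all genes. GRB10, an adaptor that mTOR complex 1 phosphorylates, had promoter peaks in LC3 ChIP (2.41) and EBSS evDNA (2.59), and PRKAG2, a subunit of the energy sensor AMPK, in FOXM1 ChIP (3.17) and LC3 ChIP (3.52). LC3 promoter peaks past a q of 0.05 stood at PRKAB1, another AMPK subunit (4.22), ATP6V0A2 of the proton pump (3.77) and WDR45B of the WIPI family (3.85). In any class, 4 of the 140 had an LC3 peak past that limit, against 0.684% of all protein-coding genes.

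Members with no peak in any list by name or position were MAP1LC3A, MAP1LC3C, GABARAP, GABARAPL1, GABARAPL2, ULK1, ATG13, ATG101, BECN1, ATG2A, WIPI1, ATG4A, ATG12, NBR1, OPTN, CALCOCO2, LAMP2, CTSL, MCOLN1, MLST8 and RHEB, 21 in all. The lists hold only peaks past the caller's limit, so signal below that limit at these genes was not visible here. For MAP1LC3A, LAMP2 and MLST8, whose strand was not known here, the bases before the start were not searched by position.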

How the data were processed

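The submitters' processing notes list fastp 0.20.0 and FastQC 0.11.8, the aligner BWA, the caller MACS3 3.0.0a6 and the annotation tool ChIPseeker, and they name build hg38. The fold of a peak over its background is a ratio on a linear scale, as the authors deposited it. Each peak also has a −log10 p-value and a −log10 q-value, deposited by the authors. Both headings are damaged in the list of EBSS evDNA, where the columns were identified by position. The score column that the authors deposited was left out. Fold, p and q describe single peaks and were compared only inside 1 list.

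Rows sharing 1 interval were merged to the strongest summit. Pileup and background were recovered by solving the fold and the Poisson p together, matched within 0.01 for 100% of peaks, in a step tested on simulated data. Relative depth is an estimate from the lowest backgrounds. Genes came from the annotation's gene name. Assignment by position used RefSeq gene bodies and 3000 bp before the start. For MAP1LC3A, LAMP2 and MLST8 it used the body alone, because their strand was not known here. Exact Clopper-Pearson intervals at 95% were computed with scipy 1.17.1, and tables with pandas 2.3.3. No test was run, since each group has 1 library.

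Members and gene lists were chosen with earlier results of these data known. Genes were named with values if they had a promoter peak, a q of at most 0.05, an overlap between lists, peaks in 3 or more lists, one of the 5 highest folds or peak counts of a list, or an LC3 gene identity; other members were named by role. Further pathway genes were named for promoter peaks in 2 or more lists or a q of at most 0.05. Alternatives were a limit on q or p, equal list lengths, assignment by position, no high-background peaks, other overlap rules and a 3 kb promoter.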

Additional observations from a re-analysis of the deposited data

How the results depend on the processing

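Of 123 recomputed values (counts of members, shared members, overlaps and member peaks, and 1 median fold), 87 were unchanged or within the limit of 1.5 times and 36 moved. Among the 87 are 29 that were 0 in both, most of which could not have changed. With q at most 0.05, members with any peak numbered 1 in FOXM1 ChIP, 0 in LC3 ChIP, 3 in control evDNA and 3 in EBSS evDNA. Promoter members at that limit were 0 in LC3 ChIP, 0 in control evDNA and 0 in EBSS evDNA. Shared members were then 0 for FOXM1 with LC3, 0 for FOXM1 with control evDNA, 1 for FOXM1 with EBSS evDNA, 0 for LC3 with control evDNA, 0 for LC3 with EBSS evDNA and 1 for both evDNA lists, and overlaps were 1 for FOXM1 with EBSS evDNA and 1 for both evDNA lists. With equal list lengths of 7801 peaks, chosen by −log10 p, members numbered 9 in control evDNA and 11 in EBSS evDNA, which turns their order, and 1 promoter member was left in control evDNA. The share of all protein-coding genes was not counted at these equal lengths, so whether genes in general turn in the same way is unknown. Shared members were then 2 for FOXM1 with control evDNA, 2 for FOXM1 with EBSS evDNA, 3 for LC3 with control evDNA and 5 for both evDNA lists. The FOXM1 and EBSS evDNA overlaps were 1, at TBC1D5, with equal lengths, with −log10 p of at least 3 and with an overlap of at least 50% of the shorter peak.

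By position, LC3 members numbered 13, promoter members were 1 in control evDNA and 0 in EBSS evDNA, and shared members were 5 for FOXM1 with LC3 and 7 for LC3 with EBSS evDNA. A further 3 alternatives were chosen after seeing the data: member peaks by position were 20 in FOXM1 ChIP and 17 in LC3 ChIP, members with q at most 0.05 by position were 3 in FOXM1 ChIP and 1 in LC3 ChIP, and leaving out RICTOR kept every count of member peaks within 1.5 times. A 3 kb promoter gave 3 members in FOXM1 ChIP and 5 in control evDNA. Of 58 strongest folds per gene and list, 44 were the same by position, 7 differed and 7 had no peak. No paired analysis was possible because each group has 1 library. Read totals are unknown, weak peaks depend on depth, and the cause of each change was not tested.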

Other observations

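Some of the 140 pathway genes outside the 58 were named at a peak of q at most 0.05. In FOXM1 ChIP there were 2, ITFG2 and TFEC, against 0.23% of all protein-coding genes. ITFG2, a subunit of the KICSTOR complex that ties amino acid supply to mTOR, was named at 4 overlapping peaks on chromosome 12 that lie where it meets the last part of FOXM1 itself. Their folds were 182.4 in FOXM1 ChIP, 4.94 in LC3 ChIP, 2.03 in control evDNA and 6.02 in EBSS evDNA, with pileups of 499, 17, 13 and 70 fragments. TFEC, the fourth MiT/TFE gene, had a distal FOXM1 peak at chr7:116181750-116182136 with a fold of 4.64 and a −log10 q of 2.05, which overlapped a control evDNA peak at chr7:116181930-116182194 with a fold of 2.98.

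In control evDNA, 4 of the 140 were named at a peak of q at most 0.05, against 4.69% of all protein-coding genes. They were PRKAA2, a catalytic subunit of AMPK (4.52), ATP6V1E2 of the proton pump (3.83), TMEM41B and WDR59 of the GATOR complex (3.13 and 3.21). TMEM41B encodes a lipid scramblase of autophagosome formation, and its peak (3.57) is distal and lies in no protein-coding gene. EBSS evDNA had 2 such genes, ITFG2 and PRKAG2, against 1.65% of all protein-coding genes. The PRKAG2 peak lies in an intron, with a fold of 3.18 and a −log10 q of 1.35.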
